A study of Homo sapiens with 9 samples.

Results

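The forkhead (FOX) family of transcription factors was followed across siRNA groups of H9, an established human embryonic stem cell line. Members were taken by name: a probe set counted when its only gene symbol was FOX, a letter from A to S and a number. The rule found 43 of the 33297 probe sets in the deposited table, for 42 genes on 19 chromosomes, since FOXK2 had 2 probe sets. It left out 7 probe sets of FOXD4L1, FOXD4L2, FOXD4L3, FOXD4L6 and FOXO3B, whose symbols carry a suffix. The rule uses names and no measured value, though it was set with earlier results of these data known.

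The study lowered TCF7L1, a DNA-binding factor of the TCF/LEF family, to look for its target genes. All 9 samples were H9 cells at day 3: 3 had no siRNA, 3 had a non-silencing siRNA and 3 had an siRNA against TCF7L1. Each gave 1 Affymetrix whole-transcript array, read as 1 signal per probe set on a linear intensity scale. H9 is a single line, and no source used here gives the siRNA sequences, the dose or the delivery. No label says that replicates were separate cultures, so the p-values measure only the spread between these samples, which may be technical. In bulk RNA, fewer cells with a transcript and less transcript per cell cannot be told apart.

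Forkhead proteins bind DNA through a winged-helix domain, and most recognise variants of one short core sequence. FOXA proteins open closed chromatin in endoderm, FOXH1 carries SMAD complexes of the Nodal pathway to DNA, and FOXD3 is needed to keep mouse pluripotent cells undifferentiated. FOXO proteins leave the nucleus when insulin signalling is active, and FOXM1 switches on genes of mitosis. In stem cells TCF7L1 mostly represses Wnt targets, and FOXA2 is one of the genes activated as cells turn to endoderm.

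The siRNA lowered its target. Signals of TCF7L1 lay between 1473 and 1842 in the 6 control samples and between 346 and 389 with TCF7L1 siRNA, which left 21.6% of the signal seen with the non-silencing siRNA (exact permutation p = 0.1, two-sided, the smallest that 3 against 3 can give). All 12 pluripotent cell markers checked, POU5F1 and SOX2 among them, lay above the array median on all 9 arrays. Of 10 fibroblast markers 6 never did, among them COL3A1, LUM and DCN, while COL1A1, COL1A2 and THY1 always did. Array medians ran from 104 to 113, and arrays correlated at r = 0.986 to 0.994 within groups and 0.984 to 0.996 between groups.

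Promoter sequences were looked up because the question of the study was which genes TCF7L1 acts on. RefSeq (build GRCh38.p14) gave 42 promoters for 31 of the 42 genes, taken as the 250 bases before each transcription start. Genes without a promoter, which were not searched, included FOXA2, FOXC2, FOXH1, FOXM1 and FOXN2. The TCF/LEF letters searched were CTTTGAA, with CTTTGAT as another form, CTTTGTA as the third and CTTTGTT as the last. They stood on either strand in 3 of these 42 promoters (7.14%), those of FOXA1, FOXD3 and FOXP2, and in 4199 of 35116 promoters of all genes (12.0%). The forkhead core TGTTTAC stood in 1 of 42 (2.38%), a promoter of FOXP1, against 2.98% of all, and the FOXH1 letters AATCCACA in 0 of 42, against 0.709% of all. The FOXA1 and FOXD3 promoters are shown for their TCF/LEF letters, that of FOXP1 for its forkhead core, and that of FOXB1, which holds none of these letters, because it is the member with the smallest p below. Each runs 5′ to 3′ on the strand of its gene, and capitals mark the matched letters. They are FOXA1 at chr14:37595250-37595499 (minus), FOXD3 at chr1:63322317-63322566 (plus), FOXP1 at chr3:71245078-71245327 (minus) and FOXB1 at chr15:60004061-60004310 (plus).
FOXA1: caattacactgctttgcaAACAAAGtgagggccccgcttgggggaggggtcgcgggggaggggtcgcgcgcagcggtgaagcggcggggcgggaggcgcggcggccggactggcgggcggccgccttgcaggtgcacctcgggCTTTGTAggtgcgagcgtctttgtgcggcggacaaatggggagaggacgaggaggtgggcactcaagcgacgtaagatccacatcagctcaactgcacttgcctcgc
FOXD3: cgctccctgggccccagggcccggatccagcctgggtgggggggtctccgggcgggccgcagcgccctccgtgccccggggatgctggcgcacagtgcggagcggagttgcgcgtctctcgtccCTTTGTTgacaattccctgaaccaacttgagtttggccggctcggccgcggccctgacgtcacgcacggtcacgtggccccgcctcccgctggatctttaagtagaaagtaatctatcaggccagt
FOXP1: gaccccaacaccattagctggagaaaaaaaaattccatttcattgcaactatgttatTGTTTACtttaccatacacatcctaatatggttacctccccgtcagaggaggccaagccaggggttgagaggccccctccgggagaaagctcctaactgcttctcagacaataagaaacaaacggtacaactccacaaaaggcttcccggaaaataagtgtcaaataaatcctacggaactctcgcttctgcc
FOXB1: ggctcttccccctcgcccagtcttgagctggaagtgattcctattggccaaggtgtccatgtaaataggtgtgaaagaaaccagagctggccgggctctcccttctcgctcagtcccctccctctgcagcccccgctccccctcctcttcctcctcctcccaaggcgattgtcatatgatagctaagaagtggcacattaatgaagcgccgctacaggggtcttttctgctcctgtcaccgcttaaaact
The match in FOXD3 lies 126 to 120 bases before the start and reads CTTTGTT on the strand of the gene. FOXA1 holds CTTTGTT on the opposite strand, 232 to 226 bases before the start, and CTTTGTA on its own strand, 107 to 101 bases before it. The core in FOXP1 lies 193 to 187 bases before one of the several starts of that gene. The member promoters were rich in G and C, with a median of 67.2% against 58.0% over all promoters. A match describes letters and is not evidence of binding. Other variants of the forkhead core were not searched.

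At baseline, in the cells without siRNA, most forkhead genes gave signals in the upper part of their arrays. Counting a probe set as expressed when it exceeded the median of its own array in all 3 samples, 30 of 43 members (69.8%) did so, against 14201 of 29096 probe sets in all (48.8%). FOXS1 did so in 1 of 3 samples, 9 members lay between the 25th percentile and the median, and 3 lay below the 25th percentile. Just inside the limit was FOXD1, which had a signal of 105 in replicate 2 where the array median was 104. FOXS1 had signals of 114, 87.0 and 107.4, where the array medians were 109, 104 and 107.7. The median is a place within an array, not a test of detection. Negative control probe sets had medians of 32.2 to 41.8, near the 25th percentiles of 28.0 to 34.6, but a long upper tail, and 0 of 43 members exceeded the 95th percentile of these controls in all 3 samples (3.59% of all probe sets did). Signals of different probe sets depend on their probes, so levels were not ranked between genes.

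**Figure D1:**
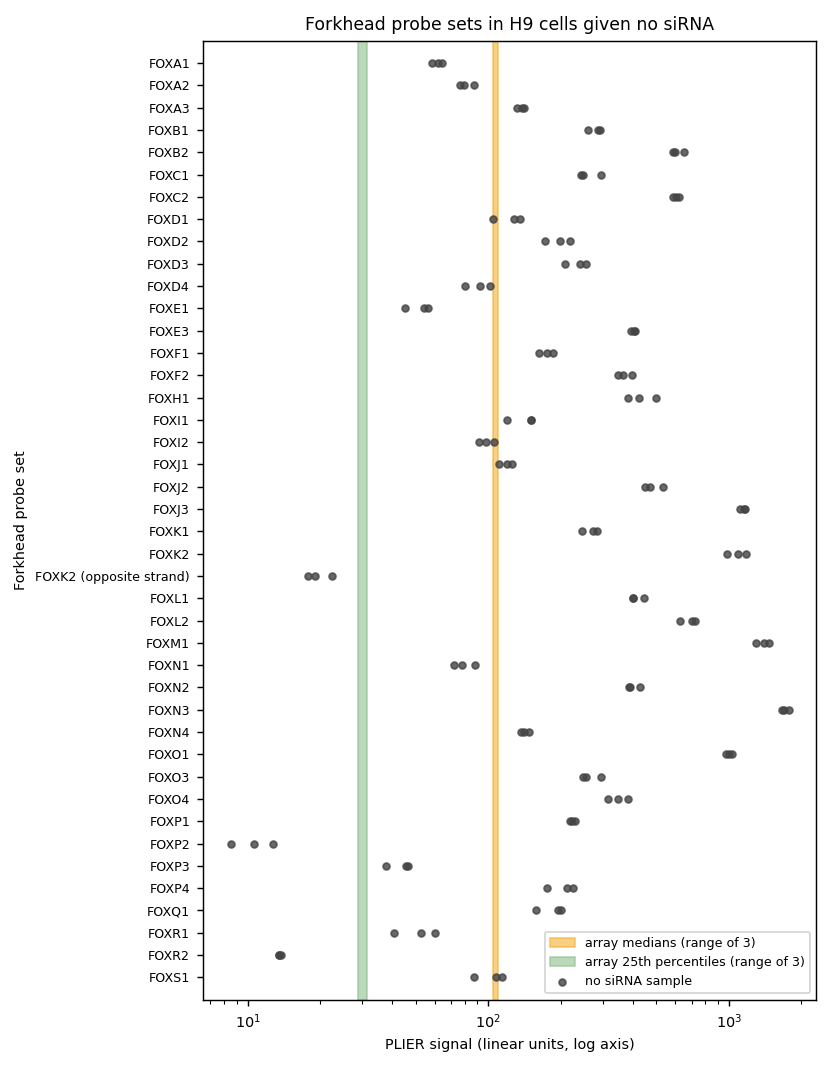
Signals of 42 of the 43 forkhead probe sets in the 3 samples without siRNA, on a log axis, in alphabetical order. Bands mark the range of the array medians and of the 25th percentiles; 30 probe sets lie above the median in all 3 samples, and the second FOXK2 probe set, FOXP2 and FOXR2 lie below the 25th percentile.

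Members known for pluripotent and early embryonic cells lay above the array median at baseline. FOXH1, the DNA-binding partner of SMAD2 and SMAD3, had signals of 380.1, 499 and 423 in the samples without siRNA. The non-silencing samples gave 468, 449.6 and 418, and the TCF7L1 siRNA samples 481, 436 and 473. The 3 groups of FOXH1 overlapped throughout. FOXD3, also a neural crest factor, had signals of 208, 241 and 255 in the samples without siRNA, 249, 261 and 255 in the non-silencing samples, and 202, 224 and 248 in those given TCF7L1 siRNA. The 3 samples of FOXD3 with TCF7L1 siRNA lay under the lowest one with the non-silencing siRNA, the highest of them only just, but overlapped those without siRNA. FOXB1, a factor of the developing mouse brain and neural tube, had signals of 259, 286 and 292 in the samples without siRNA, 260.4, 325 and 328 in the non-silencing samples, and 364, 491 and 417 in those given TCF7L1 siRNA. All 3 samples of FOXB1 with TCF7L1 siRNA lay above all 6 others.

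Of the FOXA genes of endoderm, FOXA1 and FOXA2 lay under the array median in all samples without siRNA and FOXA3 above it. FOXA2, which marks definitive endoderm and the floor plate, had signals of 79.2, 76.3 and 87.0 without siRNA. It gave 72.1, 111 and 118 in the non-silencing samples and 110.4, 159 and 126 in those given TCF7L1 siRNA. Its samples with TCF7L1 siRNA were all above those without siRNA but overlapped those with the non-silencing siRNA. FOXA2 lay above the array median in 0, 2 and 3 samples of the groups in that order. FOXA1, its close relative, lay under the median on all 9 arrays, with means of 61.6 ± 2.97, 71.7 ± 21.6 and 76.9 ± 21.7 (SD, n = 3) in the same order. FOXA3, the liver-enriched relative, had means of 136 ± 4.77, 136 ± 10.3 and 129 ± 21.8.

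Members tied to insulin signalling, growth and the cell cycle had signals above the median on all 9 arrays, apart from a second probe set of FOXK2. FOXO1 had means of 1000.1 ± 30.3 without siRNA, 1040.0 ± 45.1 in the non-silencing samples and 996 ± 45.0 in those given TCF7L1 siRNA (SD, n = 3, as in all means that follow, in this order). FOXO4, another target of AKT, had signals of 314, 346 and 382, then 329, 346 and 367, then 369, 416 and 488. The samples of FOXO4 with TCF7L1 siRNA lay above all those with the non-silencing siRNA, but the lowest lay within the range without siRNA. FOXO3 had means of 266 ± 24.4, 282 ± 48.5 and 286 ± 34.3 on a probe set of only 11 probes, and it has a near copy, FOXO3B, so its signal is uncertain. FOXM1, the activator of mitotic genes, had means of 1393 ± 87.2, 1398 ± 46.4 and 1395 ± 73.2, nearly the same in each group. FOXN3, known as a checkpoint suppressor, had signals of 1668, 1703 and 1771, then 1640.5, 1599 and 1448, then 1579, 1435 and 1712. Its samples with the non-silencing siRNA lay under all those without siRNA. FOXK1 had means of 267 ± 20.0, 253 ± 7.09 and 267 ± 17.4, and FOXK2 of 1084 ± 100.2, 1038 ± 36.7 and 1017 ± 38.7. Both FOXK proteins repress autophagy and starvation genes. The other FOXK2 probe set, on the strand opposite the gene (chr17:80561430-80561727, build 37), stayed near 20 with means of 19.8 ± 2.40, 20.5 ± 6.05 and 15.8 ± 6.77. FOXJ2 and FOXJ3 had means of 484 ± 44.9, 445 ± 41.6 and 433 ± 22.7, and of 1146 ± 27.1, 1102 ± 61.0 and 1089 ± 57.7. FOXN2 had signals of 428, 383 and 389.7, then 414, 370.1 and 346, then 359, 318 and 375, lower in every sample with TCF7L1 siRNA than in any without siRNA.

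Members known from mesoderm and mesenchyme also lay above the array median at baseline. FOXC2, a factor of vessels and mesenchyme, had signals of 585, 606 and 623, then 615, 724 and 939, then 643, 867 and 726. Its samples with TCF7L1 siRNA lay above all those without siRNA, and those with the non-silencing siRNA overlapped both. FOXC1 had means of 262 ± 29.4, 255 ± 34.4 and 269 ± 26.2. FOXF1 and FOXF2, which pattern gut mesenchyme, had means of 175 ± 11.3, 168 ± 22.5 and 177 ± 9.66, and of 367 ± 25.2, 409.7 ± 51.4 and 413 ± 55.7. FOXL1, a gene of gut mesenchyme, had means of 415 ± 27.3, 439 ± 74.8 and 442 ± 49.3, and FOXL2, an ovarian factor, of 684 ± 51.8, 724 ± 55.9 and 760.3 ± 61.6. Every one of these groups overlapped the others except where named. FOXP4 had means of 204 ± 25.5, 204 ± 9.34 and 199 ± 11.0. FOXD1 and FOXD2, known from kidney, had means of 123 ± 15.9, 132 ± 23.5 and 128 ± 31.5, and of 196 ± 24, 186 ± 21 and 199 ± 5.91.

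Neural, sensory and epithelial members ranged from the upper part of the arrays to below the 25th percentile. FOXB2, the relative of FOXB1, had signals of 597, 584 and 648, then 609.9, 803 and 882, then 707, 937 and 843. All 3 samples of FOXB2 with TCF7L1 siRNA lay above all those without siRNA. FOXP1 had signals of 230.1, 223 and 218, then 224, 224 and 187, then 259, 223 and 285, and its groups overlapped. FOXN4, a factor of retinal progenitors, had signals of 147, 137 and 141, then 141, 179 and 206, then 159, 201 and 164, above the range without siRNA in all 3 samples with TCF7L1 siRNA. FOXJ1, which drives motile cilia, had means of 119 ± 7.52, 114 ± 6.78 and 107 ± 14.9. FOXE3, a lens factor, had means of 402 ± 8.33, 424 ± 44.5 and 428 ± 46.7. FOXI1 of the inner ear and kidney had means of 140.0 ± 18, 165 ± 42.8 and 166 ± 21.5, and FOXQ1 of 185 ± 23.2, 187 ± 37.9 and 196 ± 42.0. FOXE1 of the thyroid stayed under the median on all 9 arrays, with signals of 56.0, 45.2 and 54.2, then 52.1, 60.0 and 74.1, then 54.7, 62.2 and 62.9. FOXP3, which defines regulatory T cells, had signals of 45.4, 46.4 and 37.7, then 35.1, 43.6 and 57.3, then 44.0, 62.7 and 56.9. FOXP2, known for its part in speech, had means of 10.6 ± 2.15, 11.8 ± 4.95 and 13.4 ± 1.75, and FOXR2 of 13.6 ± 0.181, 14.7 ± 3.28 and 16.6 ± 2.53. Both lay under the 25th percentile of their arrays. FOXD4, FOXI2, FOXN1, FOXR1 and FOXS1 had group means between 51.1 and 119.9, and FOXD4 has near copies among the FOXD4L genes.

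**Figure D2:**
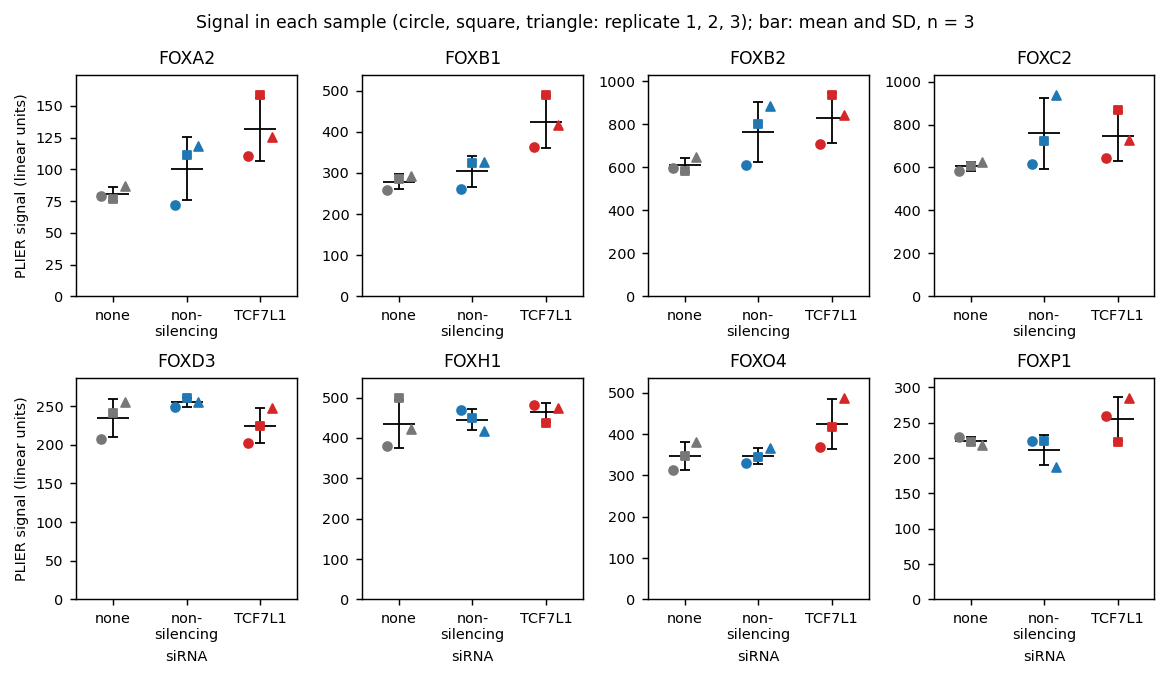
Signals of 8 members in every sample on linear axes that start at 0, with circles, squares and triangles for replicates 1, 2 and 3 and bars for the mean ± SD of each group. FOXB1 with TCF7L1 siRNA (364 to 491) lies above all 6 control samples; FOXH1 overlaps in all groups.

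With TCF7L1 siRNA against the non-silencing siRNA, no forkhead gene passed the test. Loss of TCF7L1 and any other effect of its siRNA cannot be told apart in this comparison. Signals were compared as log2(signal + 16), a scale that understates differences of dim genes, and folds given are of signal + 16. The comparison used limma across 22784 probe sets above the 25th percentile of their array in at least 3 samples. That filter kept 40 members and dropped FOXP2, FOXR2 and the second FOXK2 probe set. Of the 40, 0 had an adjusted p under 0.05, and 6 of all 22784 probe sets did (0.0263%). At an unadjusted p under 0.05 there were 3 members, all higher (7.5%, against 1.23% of all probe sets higher and 2.58% in either direction). FOXB1 had the largest difference, 0.45 on the log2 scale (SE 0.13, 95% interval 0.17 to 0.73, 1.37-fold, adjusted p = 1, limma). The other 2 were FOXO4, which differed by 0.27 (SE 0.12), and FOXP1, which differed by 0.25 (SE 0.11). The groups of FOXP1 overlapped. The count of 3 became 1 without no siRNA replicate 2 (2.5%, against 2.26% of all probe sets) or without TCF7L1 replicate 3 (2.5%, against 2.2%). It became 4 without non-silencing replicate 3 (10%, against 3.73%). FOXA2 differed by 0.35 (SE 0.16, 95% interval -0.01 to 0.72), FOXP3 by 0.21 (SE 0.15) and FOXD3 by -0.17 (SE 0.11), none of them past the unadjusted threshold. FOXH1 differed by 0.06 (95% interval -0.18 to 0.30) and FOXM1 by 0.00 within an interval of -0.20 to 0.19. Groups did not overlap for 3 members (FOXB1 and FOXO4 higher, FOXD3 lower), which is 7.5% against 4.99% of all probe sets, of which 1.88% were higher and 3.12% lower. The limma fit does not count overlap, and the highest FOXD3 sample with TCF7L1 siRNA lay only just outside the range of the non-silencing samples.

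The intervals held most members to small differences between the siRNAs. As folds of signal + 16, the 95% interval lay within 1.5-fold for 38 of 40 members, the exceptions being FOXA2 and FOXB1. It lay within 2-fold for all 40. Bounds on the signal itself are wider, most of all for dim members. Differences ran from -0.17 to 0.45 with a median of 0.02, against a median of -0.01 over all tested probe sets. Of the 40, 24 were above 0 (60%), against 47.8% of all. Single samples turned this median: it was -0.02 with 16 of 40 above 0 without non-silencing replicate 1, -0.01 with 19 above 0 without TCF7L1 replicate 2, 0.10 with 29 above 0 without non-silencing replicate 3 and 0.08 with 30 above 0 without TCF7L1 replicate 1.

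The non-silencing siRNA was also compared with no siRNA. No source used here gives the delivery, so effects of the siRNA and of its delivery cannot be told apart. Limma called 0 of 40 members and 0 of 22784 probe sets in all (0%) at an adjusted p under 0.05, and 0 members against 2.41% of all at an unadjusted p under 0.05. The smallest p among members belonged to FOXB2, with a difference of 0.30 (SE 0.14, adjusted p = 0.927, limma). FOXC2 differed by 0.30 (SE 0.15), FOXN4 by 0.26 (SE 0.13) and FOXE1 by 0.20 (SE 0.12). These values depended on single samples: without non-silencing replicate 3 they were 0.20 for FOXB2, 0.14 for FOXC2, 0.15 for FOXN4 and 0.09 for FOXE1, and without non-silencing replicate 1 they were 0.46, 0.44, 0.40 and 0.29. FOXA2 differed by 0.24, FOXD3 by 0.12, FOXB1 by 0.11 and FOXH1 by 0.04. FOXN3 alone had groups that did not overlap, lower with the non-silencing siRNA at -0.13 (2.5% of members, against 6.86% of all probe sets and 4.39% that were lower). Without non-silencing replicate 1, in which most members were lowest, 7 members had an unadjusted p under 0.05 (17.5%), close to the 15.1% of all probe sets that did. Without TCF7L1 replicate 1, which enters only the shared spread, there was 1 (2.5%, against 3.36%). The median member difference was 0.05, and 27 of 40 were above 0 (67.5%, against 46.3%). Without non-silencing replicate 3 that median was -0.0039 with 19 of 40 above 0, and without non-silencing replicate 1 it was 0.11.

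TCF7L1 siRNA against no siRNA shares samples with both comparisons above, so its values are set beside theirs and are not a repeat of them. Again 0 of 40 members passed, while 12 of all probe sets did (0.0527%), a count that ran from 3 to 14 when 1 sample was left out. At an unadjusted p under 0.05 there were 4 members, all higher (10%, against 2.57% of all probe sets higher and 7.26% in either direction). FOXB1 differed by 0.57 (SE 0.13, 95% interval 0.29 to 0.85, 1.48-fold, adjusted p = 0.398, limma), next to 0.45 against the non-silencing siRNA. FOXA2 differed by 0.60 (SE 0.16, 95% interval 0.23 to 0.96, 1.51-fold, adjusted p = 0.545, limma), next to 0.24 between the non-silencing siRNA and no siRNA. FOXB2 differed by 0.43 (SE 0.14), and the non-silencing siRNA differed from no siRNA by 0.30. FOXO4 differed by 0.27 (SE 0.12). FOXC2 differed by 0.28, FOXN4 by 0.27, FOXH1 by 0.10, FOXD3 by -0.06 and FOXN2 by -0.19. Groups did not overlap for 6 members (15%, against 14.4% of all): FOXA2, FOXB1, FOXB2, FOXC2 and FOXN4 were higher and FOXN2 lower. Of all probe sets 6.43% were higher and 7.93% lower in this way. The 95% interval lay within 1.5-fold for 32 members and within 2-fold for all 40. The median difference was 0.08, against -0.02 over all probe sets, and 29 of 40 were above 0 (72.5%, against 45.8%). The median was 0.03 without TCF7L1 replicate 2, 0.14 without TCF7L1 replicate 1, 0.05 without no siRNA replicate 2 and 0.12 without no siRNA replicate 3.

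**Figure D3:**
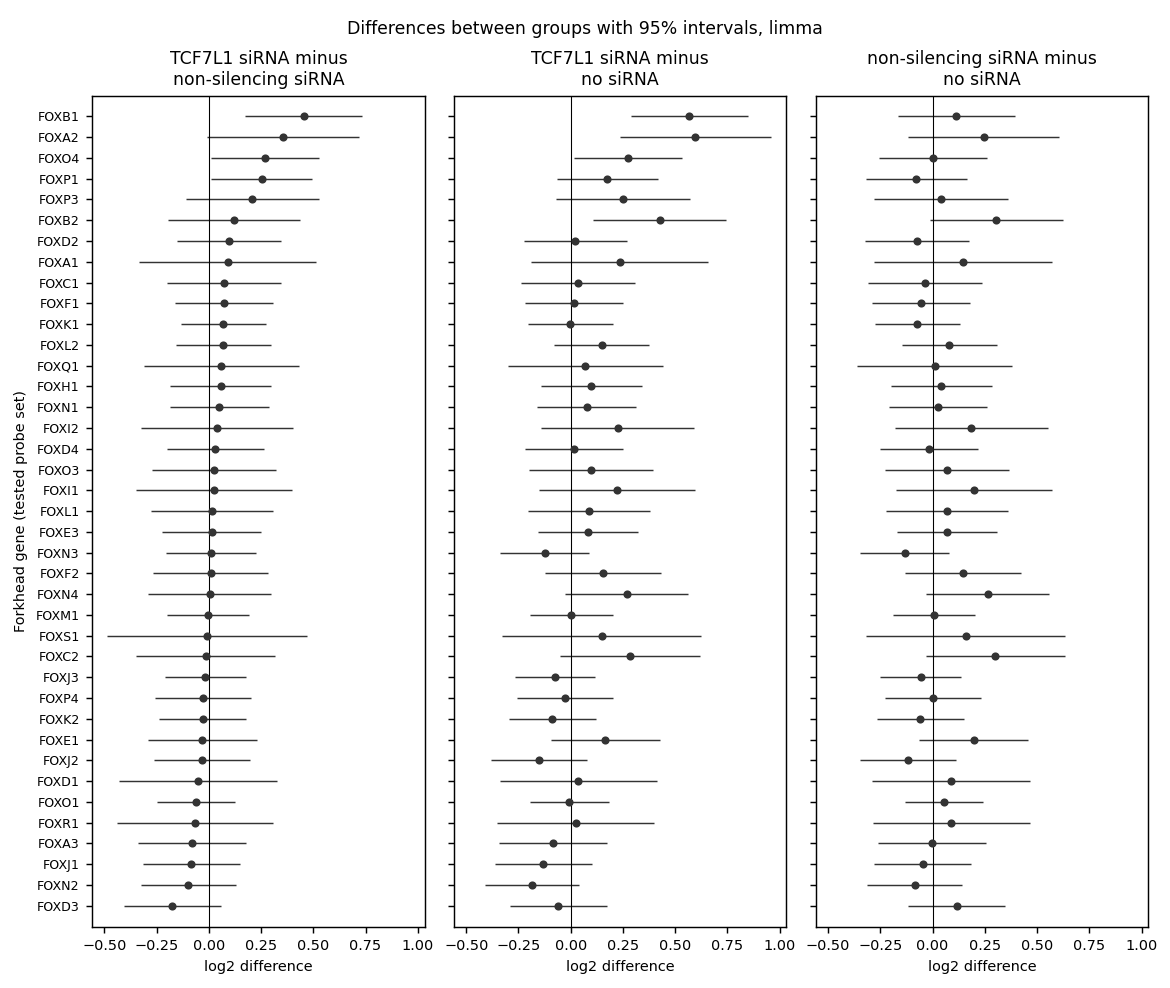
Differences on the log2(signal + 16) scale of 39 of the 40 tested members in the 3 comparisons, with 95% intervals of the limma fit. FOXB1 lies highest against the non-silencing siRNA (0.45) and FOXA2 highest against no siRNA (0.60); no member has an adjusted p under 0.05.

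The order of the group means was counted and not tested. In 18 of 43 members (41.9%, against 22% of all probe sets) the non-silencing mean exceeded that without siRNA and the TCF7L1 siRNA mean exceeded both, among them FOXA1, FOXA2, FOXB1, FOXB2, FOXH1 and FOXO4. In 7 (16.3%, against 23.6% of all) it was lower at each step, among them FOXJ2, FOXJ3, FOXK2 and FOXN2.

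Members also shared deviations on single arrays inside the siRNA groups. The arrays differed in spread: the interquartile range of log2 signal was 3.16, 3.26 and 3.20 in the samples without siRNA, 3.28, 3.08 and 2.95 in the non-silencing samples and 3.22, 2.95 and 3.10 in those given TCF7L1 siRNA. In each siRNA group the members were lowest on the array of widest spread, replicate 1. There 27 of 40 members had their lowest value with the non-silencing siRNA (36.2% of all tested probe sets did) and 25 of 40 with TCF7L1 siRNA (35.5% of all). Median deviations of the members from their group means were -0.13 and -0.11 on these arrays, while those of all probe sets were 0.03 and 0.01. On the narrowest array of each siRNA group, 25 of 40 members had their highest value in non-silencing replicate 3 (34.6% of all) and 20 of 40 in TCF7L1 replicate 2 (29.6% of all), where 12 had their lowest. Median deviations there were 0.12 and 0.06. The samples without siRNA followed this order only in part. Their widest array, replicate 2, had the lowest member median, -0.03, and 19 of the lowest values (32.5% of all). The narrowest, replicate 1, was not the highest: it had a member median of -0.02 and 16 of the lowest values (29.6% of all). Replicate 3 had 20 of the highest (26.7% of all) and a median of 0.06. FOXA2, FOXB1, FOXB2 and FOXC2 each had their lowest value in replicate 1 of either siRNA group.

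With the array spread as a covariate in the fit, the differences of these members against no siRNA became smaller. FOXA2 went from 0.60 to 0.39, FOXB1 from 0.57 to 0.44 and FOXB2 from 0.43 to 0.26, and FOXA2 between non-silencing and no siRNA from 0.24 to 0.06. Against the non-silencing siRNA, FOXB1 then differed by 0.44 in place of 0.45 and FOXA2 by 0.33 in place of 0.35. Members above 0 then numbered 23, 16 and 20 of 40 in the comparisons with non-silencing siRNA, of the non-silencing siRNA with no siRNA and of TCF7L1 siRNA with no siRNA, in place of 24, 27 and 29. The part of array spread in these differences was not tested further.

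**Figure D4:**
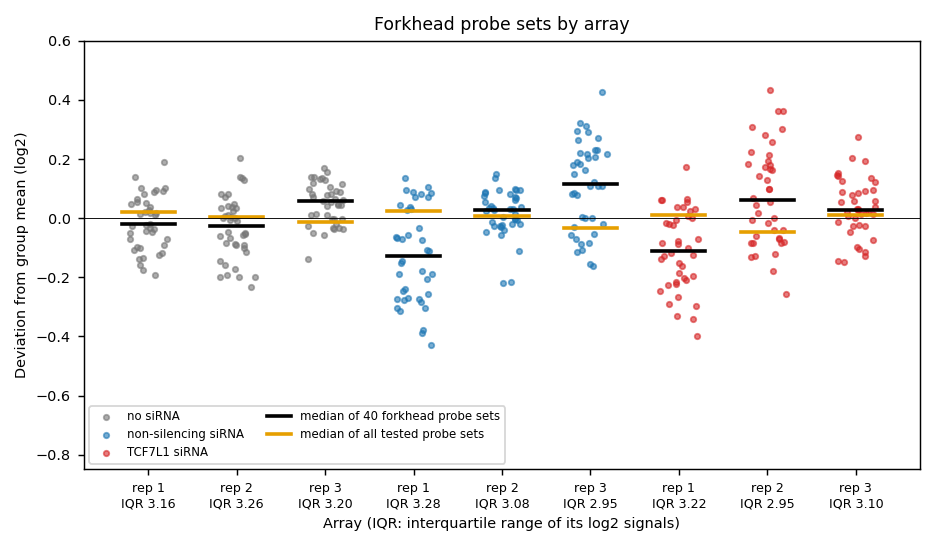
Deviation of each of the 40 tested members from its group mean on each of the 9 arrays, on the log2(signal + 16) scale, with black marks for the member median, orange marks for the median of all tested probe sets and the interquartile range of each array. The members lie lowest in replicate 1 of both siRNA groups (-0.13 and -0.11) while all probe sets stay near 0.

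Some forkhead genes sit next to each other in the genome, and neighbours were compared by their values. On build 37, FOXF1, FOXC2 and FOXL1 stand within 1 cluster on chromosome 16, with gaps of 52.8 and 9.6 kb. FOXQ1, FOXF2 and FOXC1 stand on chromosome 6 with gaps of 75.1 and 214.4 kb, and FOXE3 and FOXD2 on chromosome 1 with a gap of 18 kb. In the chromosome 16 cluster the means without siRNA and in the non-silencing samples were 605 and 759 for FOXC2, 175 and 168 for FOXF1 and 415 and 439 for FOXL1, with overlapping samples in each. In the TCF7L1 siRNA samples the means were 745, 177 and 442 in that order. There FOXC2 lay above all samples without siRNA, while FOXF1 and FOXL1 overlapped them. FOXB1, at chr15:60296421-60298174 on the plus strand, and FOXA2, at chr20:22561643-22566102 on the minus strand, have no member within 500 kb.

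The pathways around the members were read from lists of other genes. Shares over all 22784 tested probe sets are given first, between the siRNAs, non-silencing against none and TCF7L1 siRNA against none. Those above 0 were 47.8%, 46.3% and 45.8%. Those with an unadjusted p under 0.05 were 2.58%, 2.41% and 7.26%, and those past the adjusted threshold 0.0263%, 0% and 0.0527%. In the Nodal branch that FOXH1 serves, 1 of 14 tested genes rose against the non-silencing siRNA and 0 fell, with a median of 0.07 and 10 of 14 above 0. The gene that rose was NODAL, the ligand itself, with signals of 36.9, 37.6 and 31.0 in the samples without siRNA, 35.6, 35.1 and 29.2 in the non-silencing samples and 95.4, 95.7 and 95.3 in those given TCF7L1 siRNA (1.18, adjusted p = 0.00061, limma). The control signals lay near the medians of the negative controls on the same arrays (33.6 to 38.0), so the size of this difference is uncertain. Against no siRNA 2 of 14 rose, NODAL (1.13, adjusted p = 0.000983) and LEFTY2, a Nodal antagonist (0.82, adjusted p = 0.0303, limma). Between non-silencing and no siRNA 0 of 14 passed and 7 were above 0. FOXH1 itself differed by 0.06 against the non-silencing siRNA and 0.10 against no siRNA. LEFTY2 differed by 0.25 against the non-silencing siRNA and by 0.57 between non-silencing and no siRNA, neither past the adjusted threshold. With TCF7L1 siRNA, LEFTY2 (291 to 322) and LEFTY1 (247 to 264) lay above all controls (145 to 262 and 149 to 223). SMAD2 and GSC overlapped the controls. At an unadjusted p under 0.05 there were 2 of 14 genes between the siRNAs, 1 between non-silencing and no siRNA and 3 between TCF7L1 siRNA and no siRNA.

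In the other pathways no listed gene passed. Of 24 tested genes upstream of FOXO proteins or among their targets, 0 passed in any comparison, 14 were above 0 against the non-silencing siRNA and 6 against no siRNA, with medians of 0.00 and -0.13. Between non-silencing and no siRNA 4 of the 24 were above 0, with a median of -0.10 and 1 gene at an unadjusted p under 0.05, the repressor BCL6 at -0.35. At an unadjusted p under 0.05 there were 0 and 1 of these in the comparisons with non-silencing and with no siRNA, the kinase SGK1 at -0.39 against no siRNA. Of 16 FOXM1 targets 0 passed, 3 were above 0 in each of these comparisons, and the medians were -0.04 and -0.11, next to 6 above 0 and -0.06 between non-silencing and no siRNA. The mitotic genes CCNB1 at -0.21 and PLK1 at -0.20 had an unadjusted p under 0.05 against the non-silencing siRNA, and CENPA at -0.38 against no siRNA, while FOXM1 stayed at 0.00 in both. Of 11 tested genes of endoderm and floor plate around FOXA2, 0 passed and 0 had an unadjusted p under 0.05, with 10 above 0 in each and medians of 0.03 and 0.12. Between non-silencing and no siRNA 9 of these 11 were above 0, with a median of 0.11. SOX17, an endoderm factor, had signals of 101, 109 and 116, then 95.7, 138 and 172, then 115, 174 and 135, so that its groups with siRNA overlapped. Its lowest value in each siRNA group was also in replicate 1, as for FOXA2.

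Markers of other cell types were set beside FOXB1 and FOXA2. Summed signals of 6 neural ectoderm markers ran from 2126 to 2557 without siRNA, 2299.6 to 2723 in the non-silencing samples and 2767 to 3369 in those given TCF7L1 siRNA. The last range lay above both others, and most of the difference was OTX2, with group means of 1563, 1708 and 2217. SOX1 had means of 508, 506 and 509 and DLK1 of 142, 144 and 139, and PAX6, NEUROG2 and ZIC1 stayed under the median on all 9 arrays. Summed signals of 6 definitive endoderm markers ran from 991 to 1033, 939.6 to 1308 and 1067 to 1228, with CXCR4 and CER1 under the median on all 9 arrays. Summed signals of the 10 fibroblast markers were 3483 to 3668, 3204 to 3623 and 2871 to 3247. Most of this sum was THY1, with means of 2305, 2162 and 1946. COL1A1 had means of 419, 427 and 307 and COL1A2 of 421, 407 and 343. COL3A1, LUM and DCN, under the median on all 9 arrays, had higher means with TCF7L1 siRNA than without siRNA. Those of 6 mesoderm markers were 1770 to 2267, 1616 to 1833 and 1546 to 1879, and those of 6 trophoblast markers 572 to 600.1, 531 to 678 and 518 to 627. Most of the mesoderm sum was KDR, with means of 1404, 1122 and 1083. The other mesoderm markers, T, MIXL1, TBX6, MESP1 and HAND1, had higher means with TCF7L1 siRNA than without siRNA. The 12 pluripotent markers summed to 33316 to 34424, 32643 to 33792 and 32368 to 34758. Their part in the values of FOXB1 and FOXA2 was not tested.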

How the data were processed

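Total RNA was hybridised to Affymetrix whole-transcript arrays. The authors deposited linear intensity values per probe set. The submitters' processing notes name the software as Affymetrix Expression Console (1.1.1) with PLIER (2.0). No source used here gives the background and normalization steps. A second deposited table held the same intensity values (largest difference 0 over 33297 probe sets). Gene symbols and positions (build 37) came from the deposited annotation.

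Control probe sets (4201) were left out of the tests, 16 was added before log2, and dim probe sets were filtered (above the 25th percentile of the array on at least 3 arrays). One limma 3.58.1 model (R 4.3.3), with 1 mean per group over 9 arrays, gave 3 two-sided comparisons, adjusted by Benjamini-Hochberg over 22784 probe sets. The fit had 6 residual and 4.89 prior degrees of freedom, and the number of arrays limits the precision (median 95% half-width of a member difference 0.26). The script was tested on simulated data. In the lists, each gene was represented by its tested probe set of highest mean.

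FOXA2, FOXB1, FOXD3, FOXH1, the 6 members of smallest p between the siRNAs and the 4 of smallest p in each other comparison were named by value in every sample, and members above the median at baseline by group means. One member enters the counts but is not reported by name or drawn by name. Members with groups that did not overlap (FOXN2, FOXN3) were named after their values were known. The members and lists were chosen with earlier results of these data known. Alternatives changed the offset, normalization, filter, samples and covariates.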

Additional observations from a re-analysis of the deposited data

How the results depend on the processing

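No forkhead member passed an adjusted p of 0.05 under any of the 18 alternatives in each comparison, and the lowest adjusted p among members was 0.117. FOXB1 kept an unadjusted p under 0.05 against both controls in all 18, with differences of 0.35 to 0.55 against the non-silencing siRNA and 0.44 to 0.67 against no siRNA. FOXA2 ran from 0.16 to 0.47 (7 of 18) and from 0.39 to 0.70 (18 of 18).

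Deviations of same-numbered samples correlated at -0.26 to 0.68 and of others at -0.75 to 0.71. These ranges overlap and cannot decide whether the replicate numbers of the labels pair the samples. With the replicate block, the probe sets called went from 6 to 11 against the non-silencing siRNA and from 12 to 20 for TCF7L1 siRNA against no siRNA, and members at an unadjusted p under 0.05 from 0 to 2 for the non-silencing siRNA against no siRNA (5%, against 5.36% of all probe sets). With array spread as a covariate the calls were 25 and 24, and without the 2 narrowest arrays 5 for TCF7L1 siRNA against no siRNA.

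Members at an unadjusted p under 0.05 numbered 1 between the siRNAs when only these 2 groups were fitted (2.5%, against 1.94% of all probe sets). With all samples there were 3. With an offset of 64 there were 4 between the siRNAs (10%, against 2.51%) and 1 between non-silencing and no siRNA (2.5%, against 2.49%). These counts also changed when 1 sample at a time was left out. Between the siRNAs there were 1 to 4 members (4 without non-silencing replicate 3, 10% against 3.73% of all probe sets) and 4 to 6 calls. Between non-silencing and no siRNA there were 0 to 7 members (7 without non-silencing replicate 1, 17.5% against 15.1% of all probe sets). Between TCF7L1 siRNA and no siRNA there were 3 to 6 members and 3 to 14 calls. The 6 came without TCF7L1 replicate 1 (15%, against 16.1%) or without non-silencing replicate 3 (15%, against 9.04%). Calls between TCF7L1 siRNA and no siRNA fell from 12 to 3 without no siRNA replicate 1 or 3 or TCF7L1 replicate 3, to 5 without non-silencing replicate 2 or TCF7L1 replicate 1 or 2, and to 6 without no siRNA replicate 2. The member count between the siRNAs was 1 without no siRNA replicate 2 (2.5%, against 2.26% of all probe sets) or TCF7L1 replicate 3 (2.5%, against 2.2%). Without no siRNA replicate 1, the difference between non-silencing and no siRNA was -0.046 for FOXH1 and -0.0615 for TCF7L1. Leaving out 1 sample at a time gave -0.046 to 0.1435 for FOXH1, -0.0615 to 0.098 for TCF7L1, and -0.1392 to 0.009 for FOXD3 between TCF7L1 and no siRNA, the last without TCF7L1 replicate 1. The cause was not tested. The baseline count of 30 became 40 at the 25th percentile (93.0%, against 73.5% of all) and 0 at the 95th percentile of the negative controls.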
